A study of Mus musculus with 16 samples.

Results

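The thioredoxin fold and redox partner genes described here are 40 genes listed by family: the thioredoxins and their relatives, the thioredoxin reductases, the thioredoxin inhibitor Txnip, the peroxiredoxins and sulfiredoxin, the glutaredoxins, the methionine sulfoxide reductases, the protein disulfide isomerases and the other Txndc and Tmx proteins. They were chosen as relatives and partners of the thioredoxin-like gene Nxnl1, which together with Nxnl2 was left out of the set. The rule uses no measured value, although the list was drawn up with earlier results of these data known. Of the 40 genes, 37 had a probe set annotated to that gene alone, out of 18193 such genes in the series, and 35 were bright enough to be tested, out of 10916. The arrays held RNA of neural retina from albino BALB/c mice on 16 Affymetrix 3′ expression arrays, with Nxnl1-/- mice (knockout, KO) set against Nxnl1+/+ mice (wild type, WT). All animals were 11 to 16 weeks old, males and females were used in equal numbers, and each mouse was housed alone under a cycle of 12 h of 50 lux light and 12 h of darkness. Each mouse spent 16 h in the dark, then 1 h in light of 50, 2500 or 5000 lux, and then 24 h in the dark before the retina was taken, so the 50 lux groups had the housing level of light and not an absence of light. The groups were KO at 50 lux (n = 3), KO at 2500 lux (n = 3), KO at 5000 lux (n = 2), WT at 50 lux (n = 2), WT at 2500 lux (n = 3) and WT at 5000 lux (n = 3). The labels name no cell type or promoter that limits the deletion and do not say whether an array held RNA of 1 mouse or of a pool, so p-values measure the spread between these arrays.

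Thioredoxins are small proteins whose active site holds a pair of cysteines. They pass electrons to oxidised proteins, and thioredoxin reductases recharge them with electrons from NADPH. Peroxiredoxins remove hydrogen peroxide with electrons from thioredoxin, glutaredoxins do related work with glutathione, and the protein disulfide isomerases use the same fold to form and rearrange disulfide bonds in the endoplasmic reticulum (ER). Photoreceptors use much oxygen and carry membranes rich in polyunsaturated lipids, and Nxnl1 encodes rod-derived cone viability factor and a longer protein with a thioredoxin fold that binds the microtubule protein tau.

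All levels below are log2 of the deposited intensity, and a change is a difference of group means on that scale with its standard error (SE). Nxnl1 checked the labels. It lay between 2.21 and 2.92 on all 8 KO arrays and between 5.64 and 7.61 on all 8 WT arrays. The labelled tissue was borne out by 14 measured rod markers of 16 listed, whose summed intensity was 124758 to 131168 in KO and 141947 to 159823 in WT at 2500 lux, against 194447 to 211517 in KO and 203115 to 206915 in WT at 50 lux. At an adjusted p below 0.05, 13 of these 14 in KO and 9 in WT were lower at 2500 than at 50 lux (13.5% of all genes in KO and 5.13% in WT). At 5000 lux 6 in KO and 10 in WT were lower than at 50 lux (7.81% of all genes in KO and 5.27% in WT). In a bulk sample fewer cells of a type and less RNA per cell cannot be told apart, and the part of this shift in the changes below was not tested. Summed over 13 measured microglial and macrophage markers of 14 listed, intensity was 3140 to 3707 in KO and 2227 to 3501 in WT at 2500 lux, against 977 to 1336 in KO and 680 to 734 in WT at 50 lux. That sum is weighted to its brightest genes, with Lgals3 from log2 5.59 to 11.40 and Ctss from 7.80 to 9.36 over the 16 arrays. On each array 6 to 8 of the 13 exceeded log2 4. Aif1, Tmem119 and Ptprc stayed below log2 4 throughout, and Itgam lay near the lowest value on the arrays. The 11 markers of retinal pigment epithelium (RPE) summed to 5760 to 9465 in KO and 8056 to 12284 in WT at 2500 lux and to 6667 to 6687 in KO and 5220 to 6775 in WT at 5000 lux, against 10118 to 16914 in KO and 15174 to 19864 in WT at 50 lux. This RPE sum is also weighted to its brightest genes, with Ttr from log2 11.32 to 13.28 and Rlbp1 from 10.85 to 12.56. Rlbp1 was listed as a marker of Muller glia too. Best1 and Mlana were at the lowest value on every array. The mean log2 level of 8 lens markers ranged from 5.65 to 7.38 in KO and 2.55 to 3.68 in WT at 50 lux, from 3.68 to 7.03 in KO and 2.40 to 2.54 in WT at 2500 lux, and from 2.97 to 6.86 in KO and 2.40 to 11.4 in WT at 5000 lux. The value of 11.4 was that of replicate 2. The part of these markers in the results was not tested.

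Light moved a minority of the set, mostly upwards. In KO retinas at 2500 lux 7 of the 35 tested members passed the threshold, with 6 higher (Txn1, Txndc17, Nxn, Txnrd1, Txnrd3 and Pdia6) and 1 lower (Pdia5). That is 20% of the members, against 22.4% of all genes tested (8.87% higher and 13.5% lower), and the median change was 0.05 over the members and -0.08 over all genes. In WT retinas at 2500 lux 7 members also passed, with Txn1, Txndc9, Txndc17, Txnrd3, Msrb3 and Pdia6 higher and Pdia5 lower, which is 20% against 14.1% of all genes (8.93% higher and 5.13% lower), with medians of 0.07 and 0.04. The share of members that changed at 2500 lux was thus near the share of all genes in KO, and above it in WT, a gap that was not tested. The test was limma on all 16 arrays, with Benjamini-Hochberg adjustment over 23320 probe sets and a threshold of 0.05. Without KO at 2500 lux replicate 1 the KO count was 3, and without replicate 3 it was 4. The WT count was 1 without WT at 50 lux replicate 1 (Pdia5), 1 without replicate 2 (Txndc17), and 3 without WT at 2500 lux replicate 3.

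**Figure D1:**
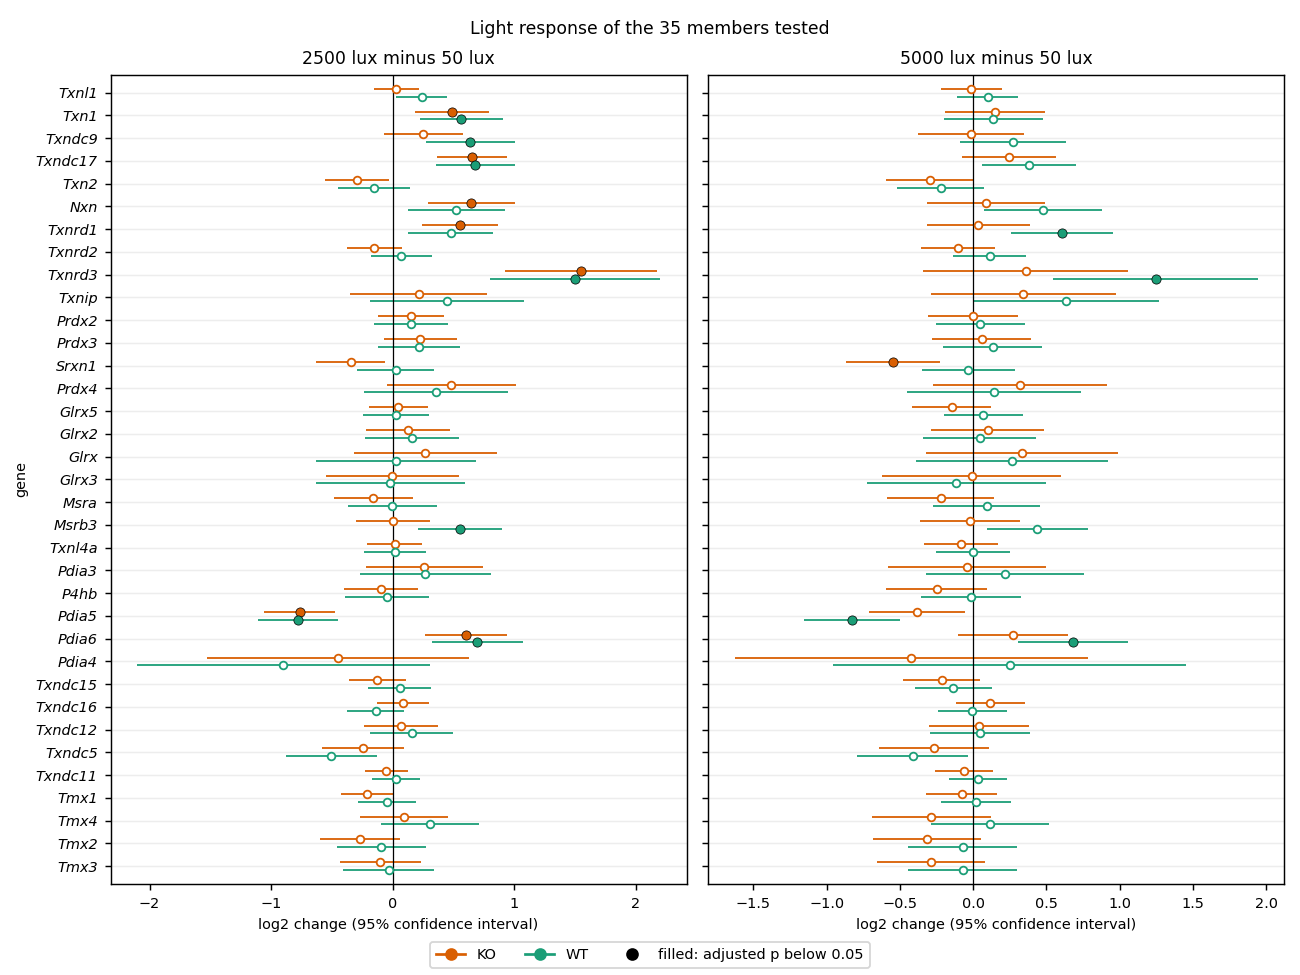
Log2 change of each of the 35 tested members at 2500 lux (left) and 5000 lux (right) against 50 lux, with 95% confidence intervals, in KO (orange, upper of each pair) and WT (green). Filled points passed an adjusted p of 0.05: 7 in KO and 7 in WT at 2500 lux, and 1 in KO and 4 in WT at 5000 lux.

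At 5000 lux fewer members passed. In KO retinas 1 of 35 changed, Srxn1, which was lower. This is 2.86% of the members, against 12.4% of all genes tested (4.6% higher and 7.81% lower), and the median change was -0.02 over the members and -0.09 over all genes. In WT retinas 4 of 35 passed, with Txnrd1, Txnrd3 and Pdia6 higher and Pdia5 lower, which is 11.4% against 12.8% of all genes (7.56% higher and 5.27% lower), with medians of 0.09 and 0.00404. The WT count was 1 (Pdia5) without either array of WT at 50 lux and without replicate 1 or replicate 3 of WT at 5000 lux, and 4 without replicate 2 of that group, the array with the high lens markers. The KO count was 0 without KO at 50 lux replicate 1 or KO at 5000 lux replicate 2, and 2 (Txn2 and Srxn1) without KO at 50 lux replicate 2.

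Over the 4 light comparisons 10 of 35 members passed at least once, in 19 calls, against 30.4% of all genes tested. The plot of group means shows where they moved. The 4 comparisons share control arrays in pairs, since both doses of a genotype were set against the same 50 lux arrays.

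**Figure D2:**
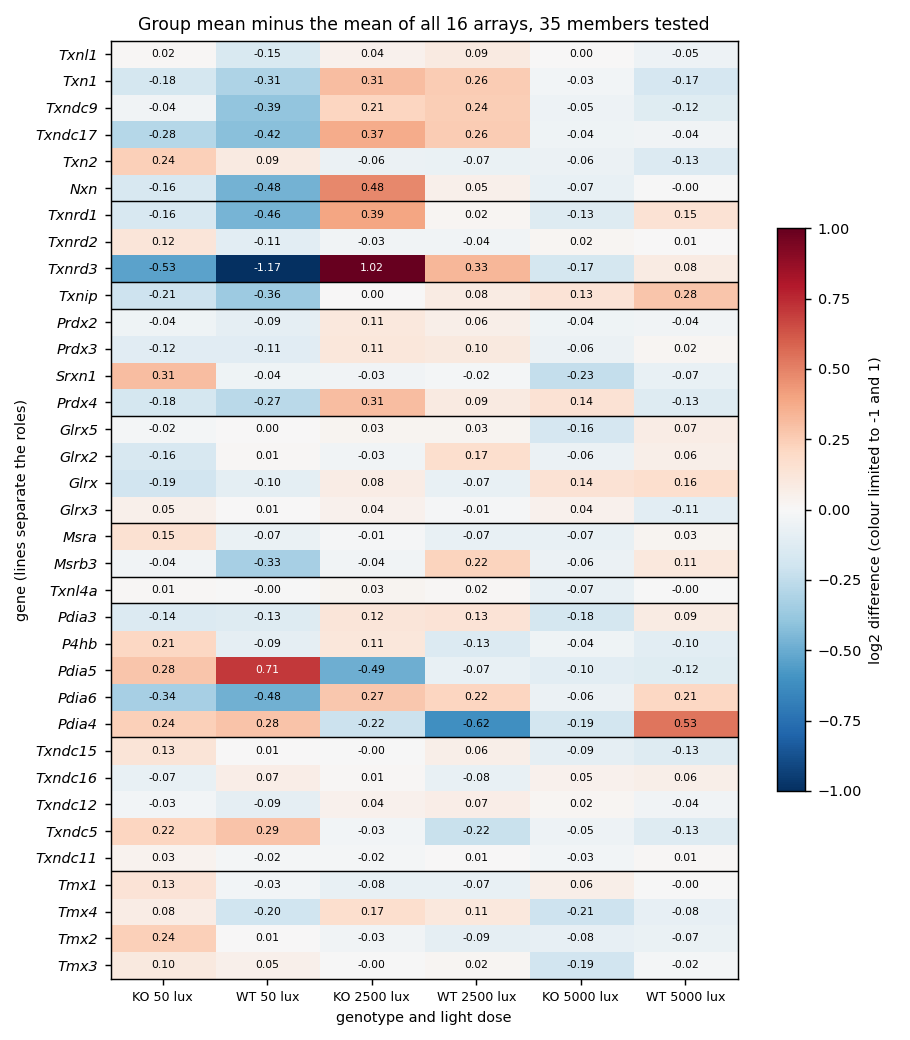
Mean log2 level of each tested member in each group minus its mean over all 16 arrays, by role, with KO left of WT at each dose. Txnrd3 spans from -1.17 in WT at 50 lux to 1.02 in KO at 2500 lux, Pdia5 is highest at 0.71 in WT at 50 lux and lowest at -0.49 in KO at 2500 lux, and Pdia4 is lowest at -0.62 in WT at 2500 lux.

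Among the thioredoxins, Txn1 (probe set 1416119_at), the cytosolic thioredoxin, rose at 2500 lux in both genotypes. In KO it lay at 10.87, 10.41 and 10.40 at 50 lux, at 11.02, 11.00 and 11.11 at 2500 lux, and at 10.72 and 10.69 at 5000 lux. In WT it lay at 10.51 and 10.35 at 50 lux, at 10.77, 11.11 and 11.09 at 2500 lux, and at 10.70, 10.40 and 10.61 at 5000 lux. All 6 arrays at 2500 lux stood above the 50 lux arrays of their own genotype. The rise at 2500 lux was 0.49 (SE 0.14, adjusted p = 0.028) in KO and 0.56 (SE 0.16, adjusted p = 0.035) in WT. At 5000 lux the differences were 0.15 in KO and 0.14 in WT, neither past the threshold. The KO call at 2500 lux was lost under 7 of 26 alternatives, among them leaving out any array of KO at 2500 lux or replicate 2 or 3 of KO at 50 lux. The WT call was lost under 6 of 26, among them leaving out either WT array at 50 lux or replicate 2 or 3 of WT at 2500 lux.

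Txndc17 (1439184_s_at), a cytosolic thioredoxin-related protein also called TRP14, rose at 2500 lux in both genotypes too. Its KO levels were 9.14, 8.97 and 8.79 at 50 lux, 9.64, 9.76 and 9.47 at 2500 lux, and 9.18 and 9.24 at 5000 lux. Its WT levels were 8.70 and 8.97 at 50 lux, 9.27, 9.65 and 9.62 at 2500 lux, and 9.26, 9.12 and 9.27 at 5000 lux. The rise at 2500 lux was 1.57-fold in KO (0.65, SE 0.13, adjusted p = 0.0039) and 1.60-fold in WT (0.68, SE 0.15, adjusted p = 0.0097). At 5000 lux it was 0.24 in KO and 0.38 in WT above 50 lux, which did not pass. The WT call at 2500 lux was lost without WT at 50 lux replicate 1. Both other bright probe sets of the gene also passed in KO at 2500 lux, with 0.65 (adjusted p = 0.023) and 0.49 (adjusted p = 0.033), and neither passed in WT, with 0.64 (adjusted p = 0.057) and 0.49 (adjusted p = 0.071).

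Txndc9 (1436951_x_at), which in mammals binds the chaperonin that folds actin and tubulin, passed only the WT comparison at 2500 lux. Its levels there were 9.89, 9.71 and 9.98, against 9.22 and 9.23 at 50 lux, a rise of 0.64 (SE 0.17, adjusted p = 0.026). In KO it had 9.92, 9.85 and 9.72 at 2500 lux, against 9.91, 9.53 and 9.29 at 50 lux, a difference of 0.25 (SE 0.15) that did not pass. The KO arrays at 50 lux thus reached into the range of the 2500 lux arrays, and the genotype difference in the response was -0.39 (SE 0.23, adjusted p = 0.61 by limma's interaction term). A second probe set of Txndc9 gave 0.35 in WT (adjusted p = 0.19), and the WT call was lost without either WT array at 50 lux or without replicate 1 or 3 of WT at 2500 lux. Nxn (1422465_a_at), nucleoredoxin, a thioredoxin relative that binds Dishevelled in Wnt signalling, passed in KO at 2500 lux with 6.51, 6.20 and 6.42, against 5.89, 5.45 and 5.85 at 50 lux, a rise of 0.65 (SE 0.17, adjusted p = 0.015). In WT Nxn had 5.85, 5.71 and 6.25 at 2500 lux, against 5.65 and 5.18 at 50 lux, 0.52 (SE 0.19, adjusted p = 0.09). The second probe set of Nxn gave 0.41 in KO (adjusted p = 0.19). The KO call of Nxn was lost without KO at 2500 lux replicate 1 or 3 or KO at 50 lux replicate 2.

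Txn2, the mitochondrial thioredoxin, and Txnl1, a thioredoxin-like protein of the cytosol, passed in no comparison. Txn2 had 9.06, 8.52 and 8.80 in KO at 50 lux, 8.43, 8.52 and 8.55 at 2500 lux, and 8.49 and 8.50 at 5000 lux. WT retinas had 8.67 and 8.62 at 50 lux, 8.44, 8.40 and 8.62 at 2500 lux, and 8.35, 8.46 and 8.45 at 5000 lux. Its differences from 50 lux lay between -0.29 and -0.16 in the 4 comparisons, all below 0 and none past the threshold. Txnl1 stayed within 11.07 to 11.43 on all 16 arrays.

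The thioredoxin reductases differed among themselves. Txnrd3 (1449623_at), the thioredoxin and glutathione reductase known best from testis, showed the largest changes of the 35 members in 3 of the 4 light comparisons, and Txnrd1, the cytosolic reductase, rose by less, while Txnrd2, the mitochondrial enzyme, passed nowhere. Their probe sets differ in brightness, so only changes are compared. The bases before the RefSeq transcription starts of both light-responsive reductases, and of the 2 isomerases that moved in opposite directions, are shown here so that their sequences can be read beside the expression values. Each line is the 250 bases before the start in GRCm38.p6, read towards the gene from 5′ to 3′, with a matched motif in capitals.
Txnrd1: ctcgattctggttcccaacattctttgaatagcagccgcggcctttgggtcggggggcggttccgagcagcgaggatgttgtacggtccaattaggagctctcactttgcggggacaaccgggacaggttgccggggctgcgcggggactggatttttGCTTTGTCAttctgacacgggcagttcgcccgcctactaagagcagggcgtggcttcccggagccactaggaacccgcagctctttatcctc
Txnrd3: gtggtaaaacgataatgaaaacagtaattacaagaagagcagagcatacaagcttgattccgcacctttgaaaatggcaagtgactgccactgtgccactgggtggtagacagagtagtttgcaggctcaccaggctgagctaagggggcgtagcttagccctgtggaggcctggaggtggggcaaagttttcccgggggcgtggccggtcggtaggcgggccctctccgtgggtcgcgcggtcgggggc
Pdia6: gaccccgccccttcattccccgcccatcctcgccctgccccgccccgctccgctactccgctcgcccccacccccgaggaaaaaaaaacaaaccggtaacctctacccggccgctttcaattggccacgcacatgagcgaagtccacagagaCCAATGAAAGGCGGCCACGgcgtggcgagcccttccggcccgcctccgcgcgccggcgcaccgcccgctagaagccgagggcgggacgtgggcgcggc
Pdia5: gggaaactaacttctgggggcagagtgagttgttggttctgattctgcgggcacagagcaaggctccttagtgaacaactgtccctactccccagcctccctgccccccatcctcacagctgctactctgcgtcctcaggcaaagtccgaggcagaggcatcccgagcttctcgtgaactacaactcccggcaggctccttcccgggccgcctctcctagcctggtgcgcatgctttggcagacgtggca
The windows are chr10:82858956-82859205 on the plus strand for Txnrd1, which is 1 of 3 starts of that gene in the table, chr6:89643738-89643987 on the plus strand for Txnrd3, chr12:17266339-17266588 on the plus strand for Pdia6 and chr16:35490874-35491123 on the minus strand for Pdia5.

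Motifs of 3 kinds were searched on both strands of these windows: the core of the antioxidant response element, TGACNNNGC, the ER stress element, CCAAT and CCACG with 9 unspecified bases between them, and the AP-1 site, TGANTCA. Of the 40 members, 35 had a window searched here, with 45 windows between them. The antioxidant core was found in 6 of the 45 windows, against 10.2% of 32851 windows of all genes. These belonged to 6 members (Txnrd1, Prdx1, Pdia3, Txndc5, Txndc11 and Tmx4). The capitals in the Txnrd1 line are that core on the minus strand, at positions -92 to -84 counted from the start. It is the 1 of the 3 Txnrd1 windows that holds any of these motifs, and was printed for that reason. The ER stress element was found only in Pdia6, at positions -98 to -80, and in 0.113% of all windows. The AP-1 site was found in 5 of the 45 windows, of 4 members (Prdx1, Srxn1, Glrx and Tmx2), against 6.75% of all windows. In the Txnrd3 and Pdia5 windows none of the 3 motifs was found, which says only that these letters are not in those bases.

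In KO retinas Txnrd3 lay at 5.16, 3.83 and 4.25 at 50 lux, at 5.82, 5.86 and 6.21 at 2500 lux, and at 4.82 and 4.73 at 5000 lux. In WT retinas it lay at 3.86 and 3.70 at 50 lux, at 4.96, 5.31 and 5.57 at 2500 lux, and at 5.25, 4.55 and 5.27 at 5000 lux. All 6 arrays at 2500 lux lay above those at 50 lux of the same genotype, and the WT arrays at 5000 lux did too. At 2500 lux the rise in KO was 2.93-fold (1.55, SE 0.29, adjusted p = 0.0021). Both WT arrays at 50 lux were below log2 4, so in WT the level was at least 2.43-fold higher at 2500 lux (adjusted p = 0.0087) and at least 2.04-fold higher at 5000 lux (adjusted p = 0.026). In KO at 5000 lux the difference from 50 lux was 0.36 (SE 0.32, adjusted p = 0.48), with a 95% confidence interval from -0.34 to 1.06. The WT calls of Txnrd3 were lost without either WT array at 50 lux, and that at 5000 lux also without replicate 1 or 3 of WT at 5000 lux. Other probe sets of Txnrd3 and of Txnrd1 lay at background.

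Txnrd1 (1421529_a_at) had KO levels of 8.17, 7.88 and 7.99 at 50 lux, 8.60, 8.49 and 8.62 at 2500 lux, and 8.33 and 7.77 at 5000 lux. In WT it had 7.70 and 7.72 at 50 lux, 8.20, 8.17 and 8.20 at 2500 lux, and 8.45, 8.06 and 8.45 at 5000 lux. Every lit WT array lay above both WT arrays at 50 lux. The rise passed in KO at 2500 lux (0.55, SE 0.14, adjusted p = 0.017) and in WT at 5000 lux (0.61, SE 0.16, adjusted p = 0.029), and not in WT at 2500 lux (0.48, SE 0.16, adjusted p = 0.077). In KO at 5000 lux it was 0.04 (SE 0.16), and 1 of the 2 arrays of that group lay below all 3 at 50 lux. The KO call of Txnrd1 was lost without replicate 1 or 3 of KO at 2500 lux or replicate 2 of KO at 50 lux, and the WT call without either WT array at 50 lux or replicate 1 or 3 of WT at 5000 lux. Txnrd2 had 5.79, 5.44 and 5.56 in KO at 50 lux, 5.44, 5.44 and 5.46 at 2500 lux, and 5.58 and 5.41 at 5000 lux. In WT it had 5.30 and 5.44 at 50 lux, 5.44 on all 3 arrays at 2500 lux, and 5.60, 5.40 and 5.45 at 5000 lux, so its groups overlapped throughout.

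**Figure D3:**
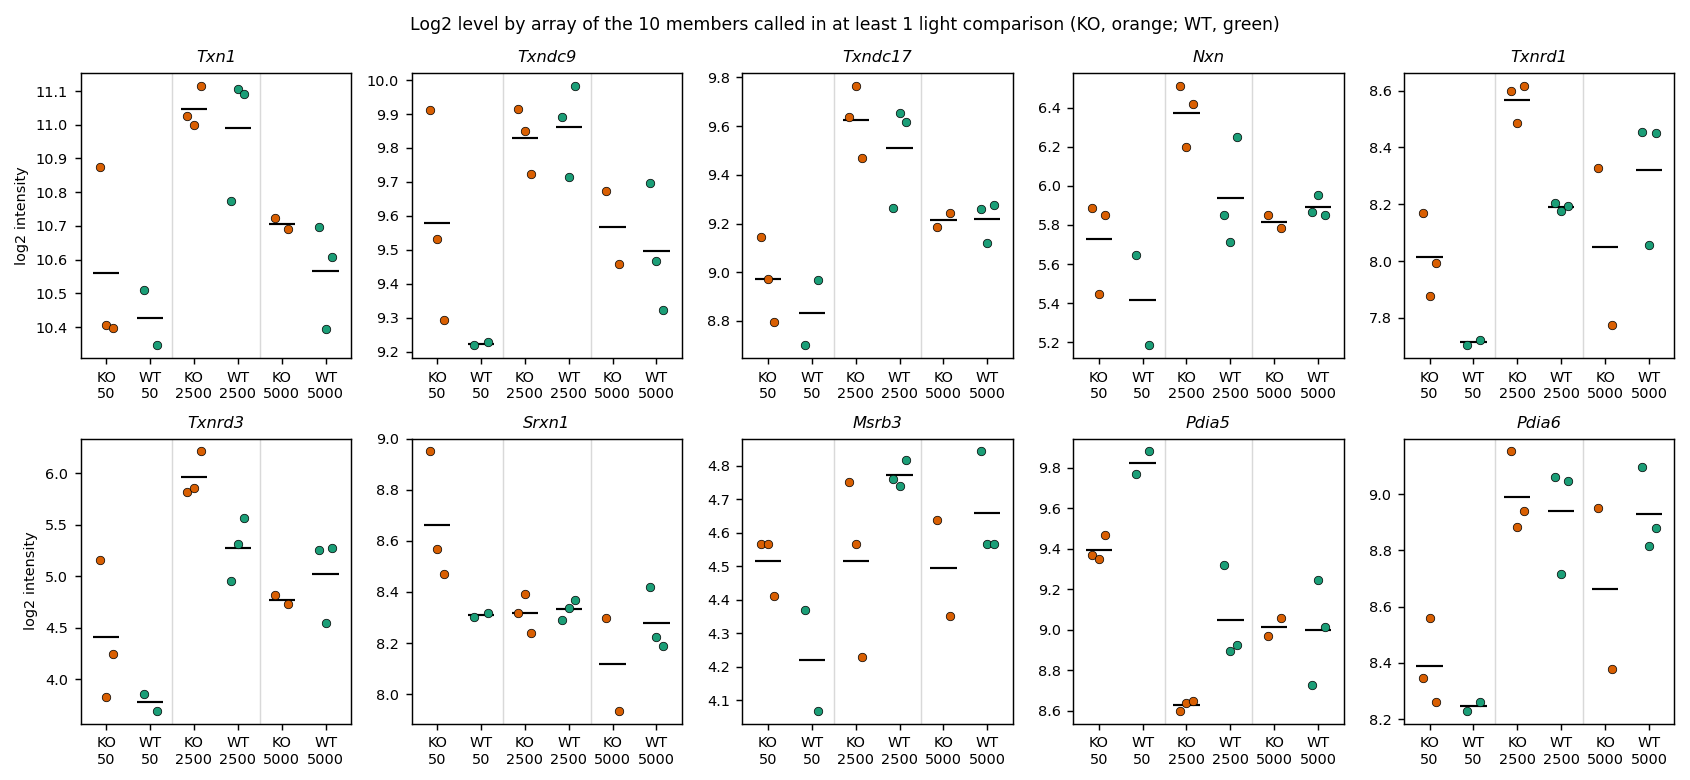
Log2 level on every array of the 10 members that passed in at least 1 light comparison, with KO (orange) left of WT (green) at 50, 2500 and 5000 lux and a bar at the group mean. Txnrd3 at 2500 lux lies at 5.82 to 6.21 in KO and 4.96 to 5.57 in WT, above the 50 lux arrays of each genotype, while Pdia5 at 2500 lux lies below them.

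Txnip, the arrestin-like protein that binds reduced thioredoxin and blocks it, varied between arrays of 1 group. It had 5.39, 5.08 and 5.06 in KO at 50 lux, 5.81, 5.33 and 5.04 at 2500 lux, and 6.01 and 5.04 at 5000 lux. WT retinas had 5.07 and 4.98 at 50 lux, 5.63, 5.39 and 5.39 at 2500 lux, and 6.15, 5.41 and 5.43 at 5000 lux. All 6 lit WT arrays lay above both WT arrays at 50 lux, and the KO groups overlapped. Such separation in WT at 2500 lux was also seen in Txnl1, Prdx4, Pdia3, Txndc12 and Tmx4, which passed in no comparison. Txndc5, which passed in none either, was separated downwards there, with 7.26 to 7.92 against 8.12 to 8.27 at 50 lux. The share of all genes with such separation was not counted. For Txnip the difference in WT at 5000 lux was 0.64 (SE 0.29, adjusted p = 0.21), and none of the 12 comparisons passed.

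Among the enzymes that use thioredoxin to remove peroxide, Prdx2 (cytosol), Prdx3 (mitochondria) and Prdx4 (ER) passed in no comparison. Their differences from 50 lux lay between 0.15 (Prdx2) and 0.48 (Prdx4) in KO at 2500 lux and between 0.15 (Prdx2) and 0.36 (Prdx4) in WT at 2500 lux. At 5000 lux they lay between 0.0004 and 0.32 in KO and between 0.05 and 0.14 in WT. All 12 of these values were above 0. Prdx1 could be read only on a probe set shared with Gm21399, where it rose in KO at 2500 lux by 0.32 (SE 0.09, adjusted p = 0.02) and differed by 0.25 in WT (adjusted p = 0.12); it is not counted among the 35. Prdx5 and Prdx6 had no probe set under those names in the annotation used.

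Srxn1 (1426875_s_at), sulfiredoxin, which reactivates overoxidised peroxiredoxins, was the 1 member that passed in KO at 5000 lux, where it was lower. It had 8.95, 8.57 and 8.47 in KO at 50 lux, 8.32, 8.39 and 8.24 at 2500 lux, and 8.30 and 7.93 at 5000 lux. In WT it stayed between 8.19 and 8.42 on all 8 arrays. The fall in KO at 5000 lux was 1.46-fold (-0.55, SE 0.15, adjusted p = 0.032), and it did not pass without KO at 50 lux replicate 1, the highest array, or without KO at 5000 lux replicate 2, the lowest. Its probe sets disagreed. A dimmer one, 1451680_at, gave a difference of 0.22 in KO at 5000 lux (adjusted p = 0.49) and rose in WT by 0.71 at 2500 lux (adjusted p = 0.037) and by 0.73 at 5000 lux (adjusted p = 0.033). The direction for Srxn1 therefore depends on the probe set.

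The 4 glutaredoxins tested, Glrx, Glrx2, Glrx3 and Glrx5, which reduce protein disulfides with glutathione or, in the case of Glrx3 and Glrx5, carry iron-sulfur clusters, passed in no comparison. Their differences from 50 lux ranged from -0.01 to 0.27 in KO and from -0.02 to 0.16 in WT at 2500 lux, and from -0.15 to 0.33 in KO and from -0.11 to 0.27 in WT at 5000 lux. Glrx3 was read from a dim probe set, and a bright one shared with Gm12669 did not pass either. Of the methionine sulfoxide reductases, which repair oxidised methionine with electrons from thioredoxin, Msrb3 (1454997_at), an ER and mitochondrial form, rose in WT at 2500 lux. It had 4.76, 4.74 and 4.82 there, against 4.37 and 4.07 at 50 lux, a rise of 0.55 (SE 0.16, adjusted p = 0.039). In KO it had 4.75, 4.57 and 4.23 at 2500 lux, against 4.57, 4.57 and 4.41 at 50 lux, with means 0.001 apart (SE 0.14). These levels lie close to log2 4, the level used here as the filter for testing, and the same value of 4.57 recurred on 5 arrays. The difference between genotypes in the Msrb3 response was -0.55 (SE 0.21, adjusted p = 0.48 by limma's interaction term). The WT call of Msrb3 was lost under 14 of 25 alternatives. Msra passed nowhere, with differences between -0.22 and 0.09, and Msrb2 did not exceed log2 3.73 on any array. Txnl4a, a component of the spliceosome, passed nowhere, with differences between -0.08 and 0.02. Its paralog Txnl4b exceeded log2 4 on 1 array only, at 4.68, and was not tested.

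Of the protein disulfide isomerases, only Pdia5 and Pdia6 passed in any comparison, and they moved in opposite directions. Pdia5 (1424650_at) passed as lower than at 50 lux in every light comparison but KO at 5000 lux, where it was lower without passing. Pdia6 (1423648_at), which acts on disulfides of ER stress sensor proteins, passed as higher in the same comparisons as Pdia5. Pdia5 had 9.37, 9.35 and 9.47 in KO at 50 lux, 8.60, 8.64 and 8.65 at 2500 lux, and 8.97 and 9.06 at 5000 lux. WT retinas had 9.77 and 9.88 at 50 lux, 9.32, 8.90 and 8.92 at 2500 lux, and 8.73, 9.25 and 9.02 at 5000 lux. Every lit array stood below all 50 lux arrays of its genotype. The fall was 1.70-fold in KO at 2500 lux (-0.77, SE 0.14, adjusted p = 0.0015), 1.72-fold in WT at 2500 lux (-0.78, SE 0.15, adjusted p = 0.0049) and 1.77-fold in WT at 5000 lux (-0.83, SE 0.15, adjusted p = 0.0033). In KO at 5000 lux the difference was -0.38 (SE 0.15, adjusted p = 0.12), with a 95% confidence interval from -0.71 to -0.05. The WT call at 2500 lux was lost without WT at 50 lux replicate 2.

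Pdia6 had 8.35, 8.56 and 8.26 in KO at 50 lux, 9.15, 8.88 and 8.94 at 2500 lux, and 8.95 and 8.38 at 5000 lux. WT retinas had 8.23 and 8.26 at 50 lux, 9.06, 8.71 and 9.05 at 2500 lux, and 9.10, 8.81 and 8.88 at 5000 lux. The lit WT arrays all stood above the 50 lux ones, and in KO those at 2500 lux did, while 1 array at 5000 lux fell within the 50 lux range. The rise was 0.60 (SE 0.16, adjusted p = 0.015) in KO at 2500 lux, 0.70 (SE 0.17, adjusted p = 0.02) in WT at 2500 lux and 0.68 (SE 0.17, adjusted p = 0.023) in WT at 5000 lux. The KO call was lost without replicate 1 of KO at 2500 lux or replicate 3 of KO at 50 lux, and both WT calls without either WT array at 50 lux or without replicate 1 or 3 of the lit group. Its window is the 1 among the members that held the ER stress element. Hspa5, the ER chaperone BiP, rose in WT at 2500 lux by 0.48 (SE 0.14, adjusted p = 0.042) and passed in no other comparison.

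P4hb, the founding protein disulfide isomerase, Pdia3, which folds glycoproteins with calnexin and calreticulin, and Pdia4 passed in no comparison. Pdia4 was picked after its values were seen, because its spread within groups (SD 0.695) was above that of 99.6% of genes tested. In KO it had 7.40, 7.66 and 7.66 at 50 lux, 8.04, 6.59 and 6.74 at 2500 lux, and 7.83 and 6.47 at 5000 lux. In WT it had 7.59 and 7.65 at 50 lux, 8.03, 6.04 and 6.09 at 2500 lux, and 7.98, 7.78 and 7.85 at 5000 lux. On 5 arrays it lay between 6.04 and 6.74, and on the other 11 it lay between 7.40 and 8.04. Replicate 1 was the high array in KO and WT at 2500 lux and in KO at 5000 lux. Pdia3 had its highest level in the same 3 groups on replicate 1 too, at 11.29, 11.16 and 11.13. In WT at 5000 lux replicate 1 was also the highest array for both genes, at 7.98 for Pdia4 and 11.22 for Pdia3. Hspa5 had 12.66, 12.44 and 12.44 in KO at 2500 lux, with replicate 1 the highest. It had 12.47, 12.58 and 12.59 in WT at 2500 lux, with replicate 1 the lowest. At 5000 lux its replicate 1 was the highest in both genotypes, with 12.30 and 12.06 in KO and 12.58, 12.31 and 12.42 in WT.

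**Figure D4:**
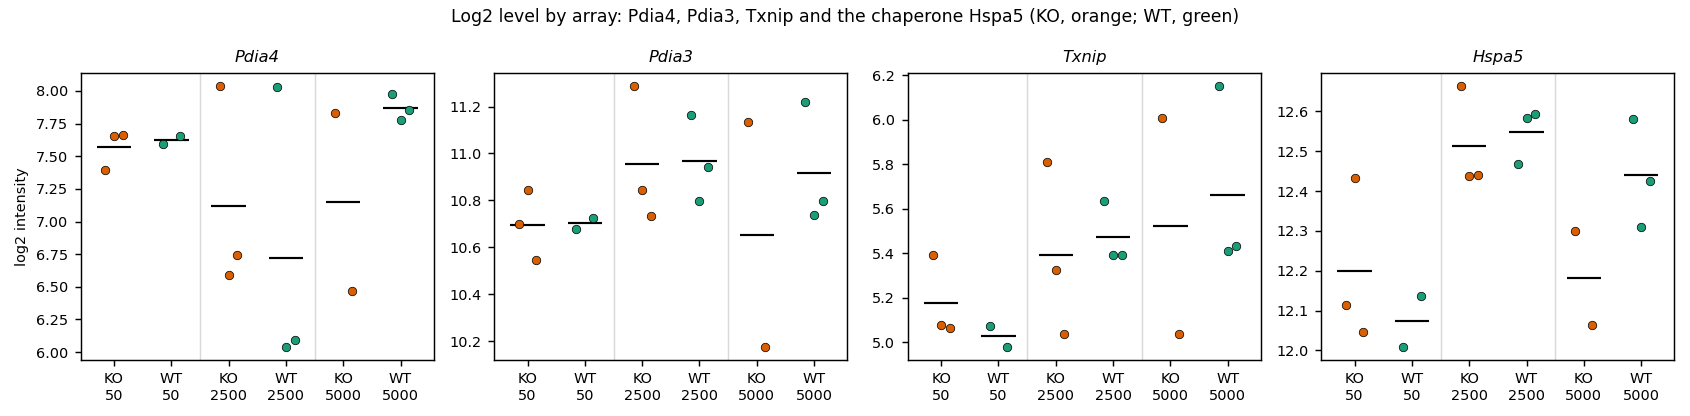
Log2 level on every array of Pdia4, Pdia3, Txnip and the chaperone Hspa5, with KO (orange) left of WT (green) at 50, 2500 and 5000 lux and a bar at the group mean. Pdia4 lies between 6.04 and 6.74 on 5 arrays at 2500 and 5000 lux and between 7.40 and 8.04 on the other 11.

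The 5 remaining Txndc proteins, Txndc5, Txndc11, Txndc12, Txndc15 and Txndc16, passed in no comparison. Txndc5, a disulfide isomerase of the ER, had the lowest differences from 50 lux among them, -0.25 in KO and -0.50 in WT at 2500 lux and -0.27 in KO and -0.41 in WT at 5000 lux. None of its 4 values passed, although, as with Pdia5, every lit array lay below all 50 lux arrays of its genotype. The 4 Tmx proteins, membrane-anchored relatives mainly of the ER, lay between -0.27 and 0.09 in KO and between -0.09 and 0.30 in WT at 2500 lux, and between -0.32 and -0.08 in KO and between -0.07 and 0.12 in WT at 5000 lux. A second probe set of Tmx1 fell in KO at 2500 lux by 0.32 (adjusted p = 0.025), where the brightest one did not pass. Txndc11 showed the same level of 6.77 on 10 of the 16 arrays.

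Between 5000 and 2500 lux no member passed the adjusted threshold. In KO 0 of 35 passed, against 0.119% of all genes tested, and in WT 0 of 35, against 0% of all genes tested. At an unadjusted p under 0.05 limma had 5 members in KO (Txndc17, Nxn, Txnrd1, Txnrd3 and Pdia5), against 13.7% of all genes, and 4 in WT (Txn1, Txndc9, Txndc17 and Pdia4), against 7.87% of all genes. The widest KO difference among them was that of Txnrd3, -1.19 (SE 0.32, adjusted p = 0.18), where both arrays at 5000 lux lay below all 3 at 2500 lux. Txn1, Txndc9, Glrx5 and P4hb, outside the KO list, also showed no overlap between these KO groups. How many of all genes did so was not counted. In WT Txn1 differed by -0.42 (SE 0.14, adjusted p = 0.57).

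Loss of Nxnl1 changed no member past the threshold at any dose. At 50 lux 0 of 35 passed, against 0.403% of all genes tested, and the median difference of KO from WT was 0.13 over the members and 0.12 over all genes. At 2500 lux 0 passed, against 0.137%, at 5000 lux 0, against 0.00916%, and over the mean of the 3 doses 0, against 0.0275%. At an unadjusted p under 0.05 limma had 2 members at 50 lux (14.5% of all genes), 4 at 2500 lux (6.89% of all genes), 0 at 5000 lux (1.73% of all genes) and 3 over the mean of the doses (7.63% of all genes). Each of these counts of members past the threshold stayed at 0 under every alternative run. Pdia5 was in 3 of the 4 unadjusted lists. It was lower in KO by 0.43 (SE 0.15, adjusted p = 0.24) at 50 lux and by 0.42 (SE 0.14, adjusted p = 0.62) at 2500 lux, and differed by 0.02 (SE 0.15) at 5000 lux. At 50 lux all 3 KO arrays lay below both WT arrays, and at 2500 lux all 3 KO arrays lay below all 3 WT arrays. Such separation was not particular to Pdia5. At 50 lux Txnl1, Txndc9, Txnrd1, Srxn1, Msra, Msrb3, P4hb, Txndc16, Tmx1, Tmx2 and Tmx4 also showed no overlap of the genotypes. At 2500 lux the same held for Txnrd1, Txnrd3 and Txndc15. The share over all genes was not counted, so these separations are not read as an effect of genotype on the members. Txnrd3 was higher in KO at 2500 lux by 0.69 (SE 0.29, adjusted p = 0.82), with no overlap of the 2 groups, Nxn by 0.43 (SE 0.17, adjusted p = 0.75) and Txnrd1 by 0.38 (SE 0.14, adjusted p = 0.75). None of these passed. The 95% confidence interval of the Txnrd3 difference, not adjusted for the number of probe sets, ran from 0.06 to 1.31, and that of Txn1 from -0.25 to 0.36.

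The response to light was not shown to differ between the genotypes for any member. At 2500 lux 0 of 35 interactions passed, against 0.0641% of all genes tested, and at 5000 lux 0, against 0.0366%. At an unadjusted p under 0.05 limma had 1 member at 2500 lux (Msrb3), against 9.53% of all genes, and 2 at 5000 lux (Txnrd1 and Srxn1), against 8.5% of all genes. The Txnrd1 response at 5000 lux was smaller in KO than in WT by 0.57 (SE 0.23, adjusted p = 0.59), and the Txnrd3 interaction did not pass either (adjusted p = 0.63), with no size given because both WT arrays at 50 lux lay below log2 4. The calls of Txnrd1, Txnrd3, Pdia6 and Pdia5 in WT at 5000 lux, against none of these in KO, come with interactions that were tested and did not pass. The KO group at 5000 lux held 2 arrays, at 8.33 and 7.77 for Txnrd1 and at 8.95 and 8.38 for Pdia6.

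Genes of the pathways around the set were counted on lists. Of 21 listed genes of the NRF2 pathway and glutathione synthesis, 18 were tested. In KO 5 rose and 1 fell at 2500 lux (33.3% of those tested, against 22.4% of all genes), and 2 rose and 1 fell at 5000 lux (16.7% against 12.4%). In WT 3 rose and 2 fell at 2500 lux (27.8% against 14.1%), and 2 rose at 5000 lux (11.1% against 12.8%). Hmox1, haem oxygenase, rose by 3.53 (SE 0.26, adjusted p = 1.2e-06) in KO and 2.50 (SE 0.29, adjusted p = 8.1e-05) in WT at 2500 lux, and by 1.46 in KO and 2.25 in WT at 5000 lux. Sod2, the mitochondrial superoxide dismutase, rose in all but KO at 5000 lux, with 0.66 in KO and 0.70 in WT at 2500 lux. Slc7a11, the cystine transporter, rose in KO at 2500 lux by 0.89 (SE 0.11, adjusted p = 0.00013) and was higher there in KO than in WT by 0.79 (adjusted p = 0.02). Me1, malic enzyme, a source of NADPH, fell by 0.87 in KO and 0.51 in WT at 2500 lux and by 0.70 in KO at 5000 lux. The median change of the list was 0.27 in KO and 0.22 in WT at 2500 lux, and 0.02 in KO and 0.17 in WT at 5000 lux, where the medians of all genes were -0.08, 0.04, -0.09 and 0.00404 in the same order.

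Of 23 other thioredoxin fold genes, 17 were tested. In KO 3 rose and 1 fell at 2500 lux (23.5%, against 22.4% of all genes) and 1 rose at 5000 lux (5.88% against 12.4%). In WT 2 rose at each dose (11.8%, against 14.1% of all genes at 2500 lux and 12.8% at 5000 lux). These shares lay near or below those of all genes, with list medians between -0.09 and 0.17. Clic1, a chloride channel protein with a glutathione transferase fold, rose in all 4 comparisons, by 1.77 in KO and 1.95 in WT at 2500 lux and by 1.19 in KO and 1.87 in WT at 5000 lux. Clic4 rose in 3 of them, by 0.87 in KO and 1.18 in WT at 2500 lux and by 0.78 in WT at 5000 lux. Ptges2, a prostaglandin E synthase, was the gene that fell, by 0.67 in KO at 2500 lux. In the ER chaperone list all 19 genes were tested. In KO 1 rose at 2500 lux (5.26%) and 0 at 5000 lux, and in WT 2 rose at 2500 lux (10.5%) and 1 at 5000 lux (5.26%), each below the share of all genes, with list medians between -0.04 and 0.17. Ddit3, the stress factor CHOP, accounted for the KO call (0.55, SE 0.12, adjusted p = 0.0052).

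Of 14 relatives of Txnip and glucose-sensing genes, 12 were tested. In KO 1 rose and 2 fell at 2500 lux, and 2 rose and 1 fell at 5000 lux, and in WT 2 rose and 1 fell at 2500 lux and 3 rose at 5000 lux. Each is 25% of those tested, against 22.4%, 12.4%, 14.1% and 12.8% of all genes in that order. The list medians lay between -0.02 and 0.11. Klf10, a zinc-finger factor, rose by 2.14 in KO and 1.81 in WT at 2500 lux and by 1.35 in KO and 1.95 in WT at 5000 lux. Arrdc4, an arrestin relative of Txnip, rose in WT by 0.97 (SE 0.21, adjusted p = 0.0099) at 2500 lux and by 0.83 (SE 0.21, adjusted p = 0.026) at 5000 lux. The falls counted at 2500 lux in both genotypes were all of other arrestin relatives. Mlxip, of the same list, rose at 5000 lux by 0.50 in KO (adjusted p = 0.013) and 0.44 in WT (adjusted p = 0.02). Slc2a3, a glucose transporter, fell in KO at 5000 lux by 0.70 (adjusted p = 0.016). Of 11 partners linked to thioredoxin, 9 were tested. In KO 1 rose and 1 fell at 2500 lux (22.2%, against 22.4% of all genes) and 0 passed at 5000 lux (12.4% of all genes). In WT 2 rose at 2500 lux (22.2% against 14.1%) and 2 rose and 1 fell at 5000 lux (33.3% against 12.8%), with list medians between -0.13 and 0.08. Map3k5, the kinase ASK1 that reduced thioredoxin holds inactive, rose in WT by 0.80 (SE 0.12, adjusted p = 0.00084) at 2500 lux and by 0.69 (SE 0.12, adjusted p = 0.0025) at 5000 lux. It passed in no other comparison, and its interactions of genotype and light did not pass either, so a difference between genotypes was not shown. Apex1, a DNA repair enzyme that works with thioredoxin on transcription factors, rose by 0.60 in KO (adjusted p = 0.021) and 0.70 in WT (adjusted p = 0.024) at 2500 lux and by 0.62 in WT (adjusted p = 0.046) at 5000 lux. Sesn3 fell in KO at 2500 lux (-0.50, SE 0.13, adjusted p = 0.018), and Sesn1 fell in WT at 5000 lux (-0.59, SE 0.16, adjusted p = 0.029).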

How the data were processed

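The authors deposited 1 linear intensity per probe set and array. Per the submitters' processing notes GCRMA was used, with its version and settings not given in the sources used here. Log2 of the deposited intensity was taken. Testing was limited to the 23320 of 45037 probe sets that exceeded log2 4 on 2 or more arrays. The annotation table gave a single gene symbol to 34945 probe sets, several symbols to 932 and no symbol to 9160. Each of the 10916 genes counted was read on its single-symbol probe set of highest mean over the 16 arrays. A lowest value of 4.62 filled 30.9% to 31.5% of each array. The number of arrays limits the precision.

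A model with a mean per group was fitted in limma 3.58.1 under R 4.3.3 (10 residual degrees of freedom, 3.18 prior ones), with 12 comparisons and Benjamini-Hochberg adjustment over all probe sets tested. Where all arrays of 1 group lay below log2 4 the fold is a lower bound. Every member past the threshold was described, with the thioredoxins, reductases and Txnip, and at most 4 genes per list. The members and lists were chosen with earlier results of these data known. Promoter windows came from RefSeq (GRCm38.p6). Alternatives were another filter, pseudocount, scaling, variance model, array weights, probe set rule, arrays fitted, the replicate block and leaving out each array.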

Additional observations from a re-analysis of the deposited data

How the results depend on the processing

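Of 19 calls of a member in a light comparison, none reversed under any alternative, and 3 were kept under each one run (Pdia5, Txndc17 and Txnrd3 in KO at 2500 lux). Without the filter on low values the members called numbered 4 in WT at 2500 lux, 1 in WT at 5000 lux and 0 in KO at 5000 lux. With only the arrays compared they numbered 1, 1 and 0 in those comparisons. Array weights gave 7 in WT at 5000 lux and 0 in KO at 5000 lux, where the mean of a gene's probe sets also gave 0. Leaving out 1 array gave 3 to 8 in KO and 1 to 8 in WT at 2500 lux, and 0 to 2 in KO and 1 to 5 in WT at 5000 lux. A lone array left in a group was assumed to vary like the others. The other 8 comparisons gave 0 members under every alternative. The cause of these changes was not tested. A filter at log2 6 removed Txnrd3 and Msrb3. With the replicate block 7 members were called in KO and 9 in WT at 2500 lux, and 1 in KO and 6 in WT at 5000 lux. Same-numbered arrays correlated in their deviations between -0.0121 and 0.359 in the 9 pairs from comparisons with 3 shared numbers, and 5 of 9 correlated best with their own number. In the 12 pairs from comparisons with 2 shared numbers the correlations ran from -0.0863 to 0.693, highest between KO and WT at 5000 lux (0.693 and 0.471). Between KO and WT at 50 lux they were 0.354 and 0.462. Since not every correlation exceeded 0.1, the numbers were not taken as pairs. That cut-off does not settle whether same-numbered arrays shared an effect, which was not tested further.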

Other observations

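The deposited values repeat exactly across arrays. To 6 decimals, 14.1% of the probe sets tested had 1 value on 4 or more of the 16 arrays. Among the members Txndc11 had 1 value on 10 arrays, Txnrd2 on 7, Msrb3 on 5, and Nxn and Glrx3 on 4 each. The part of such repeats in the spread within groups was not tested.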
